A study of Mus musculus with 6 samples.

Results

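Collagen genes were followed in damaged hepatocytes (dHeps) treated with DMSO, 3C or 5C. The members were all genes of the deposited count table whose symbol reads Col, a type number, a and a chain number, such as Col1a1. This rule found 44 of 52323 genes, of which 11 encode fibrillar collagens, 6 basement membrane collagens, 9 fibril-associated collagens with interrupted triple helices (FACIT), 6 microfibrillar collagens and 12 other types. The rule reads the symbol alone.

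The dHeps came from mice injured with carbon tetrachloride (CCl4) that carried the AAV-TBG-Cre:Rosa-LSL-tdTomato tracing system, in which the liver-specific thyroxine-binding globulin promoter drives Cre and Cre switches on the red protein tdTomato. All groups shared this injury and this system, were plated on rat tail collagen and were kept in serum-free Hepatocyte Maintenance Medium to day 16. Cells given the solvent alone (DMSO) served as control. In 3C they received 50 µM CID755673, a protein kinase D inhibitor, 2 µM GSK429286A, a ROCK inhibitor, and 5 µM ETC-1002, which the study describes as an AMPK activator. In 5C the same compounds were joined by 5 µM salidroside, a plant glycoside, and 2 µM forskolin, which activates adenylate cyclase. There were 2 bulk RNA-seq libraries per group. The labels gave neither the age of the mice nor whether the 2 libraries of a group came from separate animals, so p-values measure the spread between these libraries, which may be technical.

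Collagens are secreted proteins built from 3 chains wound into a triple helix, in which glycine recurs at regular steps. Fibrillar collagens form the tensile fibers of connective tissue, type IV collagen forms the sheet of basement membranes, and type VI collagen forms beaded microfibrils at the cell surface. In the healthy liver these transcripts come mostly from stellate cells, portal fibroblasts and endothelial cells. Scarring after injury is marked by deposition of types I and III.

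The sequencing depth was even. Total estimated counts ranged from 65916573 to 69245895 per library, and the largest total was 1.05 times the smallest. A gene with 12 count units in a library, which is 3 fragments if a fragment stands for 4 units, was taken as at the floor, and this floor was 0.173 to 0.182 CPM, the count scaled to the library total. The number of units per fragment is uncertain, and floors cover counting error only. Marker genes, chosen from general knowledge but with earlier results of these data known, moved with the groups. The summed level of 8 hepatocyte markers was 1891 and 2294 CPM in DMSO, 10500 and 10910 in 3C, and 9651 and 14290 in 5C. Stellate cell and fibroblast markers (14) summed to 1512 and 1675 CPM in DMSO, 1817 and 1988 in 3C, and 2512 and 2560 in 5C. Dcn held the largest part, at 587 and 702 CPM in DMSO, 1006 and 1157 in 3C, and 1489 and 1605 in 5C. Against DMSO, 3 of the 14 fell in each cocktail, as given below. The 7 mesothelial markers summed to 979 and 1193, 1263 and 1409, and 2308 and 2412 CPM in this group order. The 10 macrophage markers summed to 11100 and 11960, 3632 and 3643, and 2396 and 2432. The 9 endothelial markers summed to 353.2 and 376.1 CPM in DMSO, 96.2 and 131.4 in 3C, and 153.1 and 236.1 in 5C, with Clec4g at the floor in all libraries. Lyve1 held most of the sum in DMSO (309 and 319 CPM) and fell, as did Vwf. Of the 8 tested endothelial markers 5 rose in 5C and 3 in 3C against DMSO, where 15.6% and 12.7% of all genes rose. Cdh5, for example, was at 1.25 and 1.06 CPM in DMSO, 6.45 and 14.9 in 3C, and 43.3 and 72.2 in 5C. The 7 cholangiocyte markers summed to 2920 and 3407, 3566 and 3760, and 2411 and 2714 CPM, and the 3 smooth muscle markers to 46.2 and 54.9, 24.4 and 28.5, and 15.0 and 24.6. The cholangiocyte sum was mostly Spp1 (2748 and 3232 CPM in DMSO). Of these markers 5 rose and 1 fell in 5C, and 5 rose and 0 fell in 3C, against DMSO. Over all genes, 15.6% rose and 13.1% fell in 5C, and 12.7% rose and 11.8% fell in 3C. None of the lists was at 0 in any group, and their part in the collagen results was not tested. In bulk RNA, fewer cells of a type and less RNA per cell cannot be told apart.

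Many of the genes share an architecture that the rule did not use. In the GENCODE annotation of GRCm39, the canonical transcript of a collagen gene had a median of 48 exons, against 7 in the 21726 other protein-coding genes. Of 1911 inner coding exons of the 44 genes, 1222 (63.9%) had a length that is a multiple of 9 bases, the length of a Gly-X-Y triplet of codons, against 13.6% in other genes. The share was 84.0% in the fibrillar class and 47.2% in the basement membrane class, where the helix has many interruptions. In single genes it ranged from 22.2% (Col12a1) to 90.0% (Col1a2). Col8a1 and Col8a2 had 4 exons, Col10a1 had 3, and these genes had no inner coding exon.

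Several members are neighbors. Col4a1 and Col4a2 lie head to head on chromosome 8 and overlap by 356 bases, as do Col4a4 and Col4a3 on chromosome 1 by 159 bases. Col4a6 and Col4a5 lie head to head on chromosome X with 1281 bases between them. Col3a1 and Col5a2 face each other on chromosome 1 at a distance of 16713 bases, and Col6a2 and Col6a1 lie on the same strand of chromosome 10. The head-to-head genes Col4a1 and Col4a2 both rose in 5C against DMSO. Col1a2 was the member with the highest mean FPKM, and Col6a1 rose in both cocktails. Promoters of 300 bases around the start site are shown for these 4 genes. They come from RefSeq on GRCm38.p6, where 35 of the 44 genes had an entry, and are written 5′ to 3′ on the gene's own strand. Capitals mark the CCAAT box (CCAAT, which reads ATTGG on the other strand) and the GC box (GGGCGG, which reads CCGCCC on the other strand).
Col4a1, chr8:11312777-11313076, minus strand: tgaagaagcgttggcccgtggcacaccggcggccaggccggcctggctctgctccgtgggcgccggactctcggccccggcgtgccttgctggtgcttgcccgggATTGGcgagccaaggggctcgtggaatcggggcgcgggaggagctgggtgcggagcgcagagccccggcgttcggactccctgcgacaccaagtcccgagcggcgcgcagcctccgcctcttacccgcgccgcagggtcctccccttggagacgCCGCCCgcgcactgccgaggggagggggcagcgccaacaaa
Col4a2, chr8:11312555-11312854, plus strand: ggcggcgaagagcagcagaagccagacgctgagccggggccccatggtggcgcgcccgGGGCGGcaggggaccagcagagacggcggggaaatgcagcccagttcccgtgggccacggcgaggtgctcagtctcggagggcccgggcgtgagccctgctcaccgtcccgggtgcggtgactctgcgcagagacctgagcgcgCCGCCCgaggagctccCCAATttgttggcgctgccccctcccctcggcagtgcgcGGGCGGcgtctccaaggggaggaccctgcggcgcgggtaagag
Col1a2, chr6:4505368-4505667, plus strand: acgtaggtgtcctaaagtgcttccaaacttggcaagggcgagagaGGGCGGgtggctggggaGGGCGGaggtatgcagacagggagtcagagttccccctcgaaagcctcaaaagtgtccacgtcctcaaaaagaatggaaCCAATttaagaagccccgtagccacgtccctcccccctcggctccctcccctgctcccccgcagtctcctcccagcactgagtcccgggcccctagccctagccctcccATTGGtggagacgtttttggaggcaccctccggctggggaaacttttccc
Col6a1, chr10:76725995-76726294, minus strand: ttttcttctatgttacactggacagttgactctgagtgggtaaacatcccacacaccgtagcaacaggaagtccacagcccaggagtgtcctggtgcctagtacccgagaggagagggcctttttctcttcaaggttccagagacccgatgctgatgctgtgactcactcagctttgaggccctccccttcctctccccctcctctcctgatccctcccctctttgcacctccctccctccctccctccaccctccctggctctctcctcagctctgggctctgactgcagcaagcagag

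The windows of Col4a1 and Col4a2 share 78 bases, from 11312777 to 11312854 of chromosome 8. The CCAAT box was found in 34.2% of 38 collagen promoters and in 37.4% of 32813 others, and the GC box in 60.5% and 35.6%. The TATA box, searched as TATAAA on both strands, was found in 13.2% and 13.6%. A cAMP response element, TGACGTCA, which reads the same on both strands, was found in 2.6% of collagen promoters, that of Col24a1, and in 1.8% of the others. The window of Col6a1 held none of these motifs, which says only that these letters are absent from these bases.

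The most abundant collagen transcripts were those of types I, III, IV and V. Levels between genes are given in FPKM, a unit corrected for the length of the gene. Col1a2, Col1a1, Col4a1, Col3a1, Col5a2 and Col4a2 together made up 77.9% to 84.8% of the summed collagen FPKM of a library. Mean FPKM over all libraries was 1 or more for 22 of the 44 members. At the other end, 7 members did not exceed the floor in any library, and Col9a1 and Col19a1 were at 0 in all of them. The test across genes kept 37 members. It left out Col9a1, Col19a1 and Col22a1 of the FACIT class and Col10a1, Col13a1, Col25a1 and Col26a1 of the others, all with at most 0.227 CPM in any library.

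**Figure D1:**
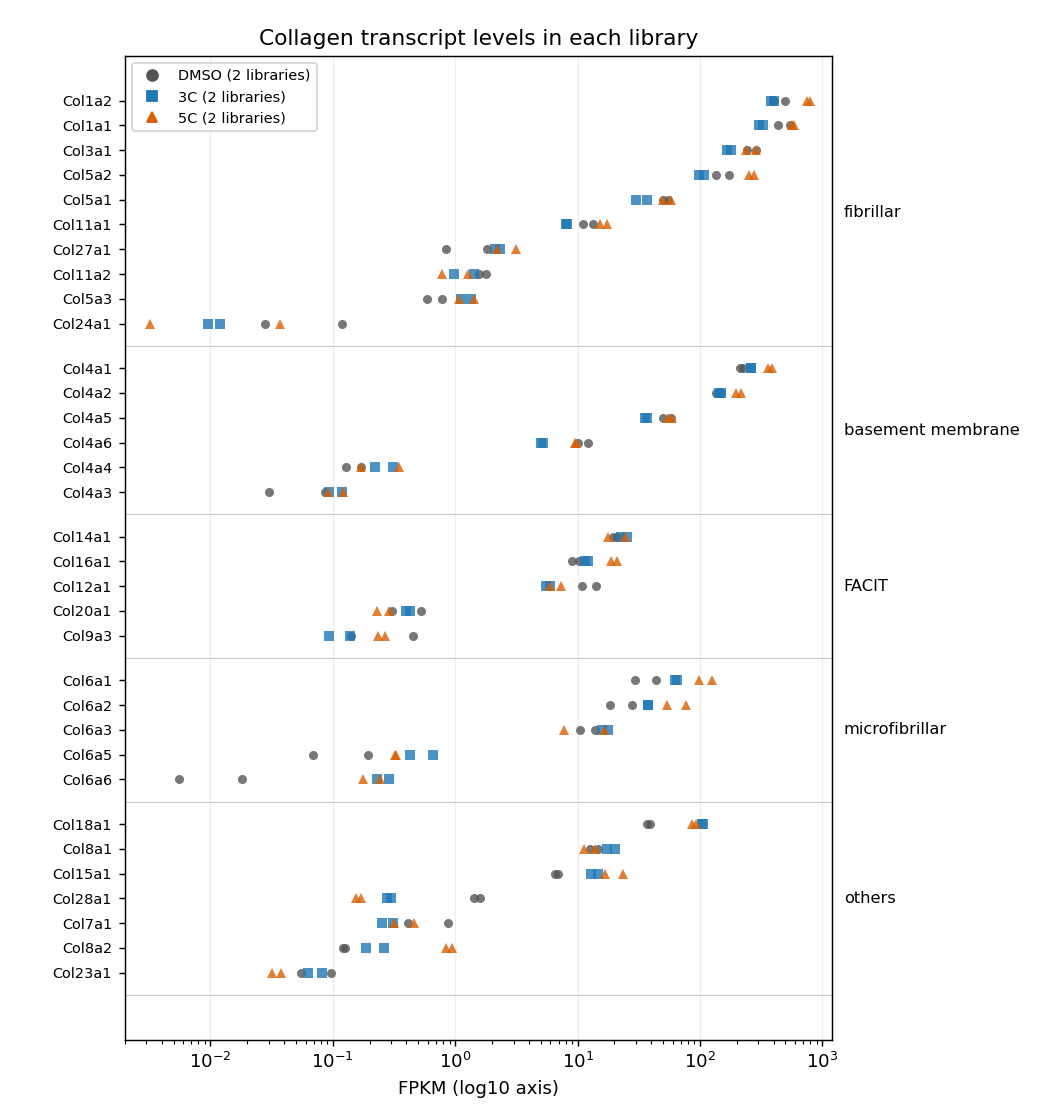
FPKM (log10 axis) of the 33 collagen genes with a value above 0 in every library, by class, with 1 point per library and 2 libraries each for DMSO (circles), 3C (squares) and 5C (triangles). Rows of a class are ordered by mean FPKM, Col1a2 spans 382 to 794 FPKM, and in Col1a2, Col5a2 and Col4a1 the 5C triangles lie above all other points.

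Collagen transcripts took the largest part of the RNA in 5C. The 44 genes held 1.40% and 1.24% of the counts in the DMSO libraries, 1.14% and 1.18% in 3C, and 1.81% and 2.02% in 5C. The 5C libraries lay above all others, and the 3C libraries lay just below those of DMSO. The log2 ratio of the mean shares was 0.54 ± 0.17 between 5C and DMSO, -0.18 ± 0.13 between 3C and DMSO and 0.72 ± 0.12 between 5C and 3C, with the error from the SD of the libraries. With 2 libraries against 2 the smallest p of an exact permutation test is 0.333, so these totals were not tested.

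The classes did not move alike. Summed fibrillar FPKM was 1573 and 1283 in DMSO, 992 and 1067 in 3C, and 1875 and 2022 in 5C, so that the 3C libraries were lowest and the 5C libraries highest. Fibrillar chains made up 69.4% and 71.1% of the collagen FPKM in DMSO, 57.1% and 58.7% in 3C, and 65.6% and 66.2% in 5C. Basement membrane chains summed to 444 and 408 FPKM in DMSO, 444 and 452 in 3C, and 625 and 670 in 5C, with only the 5C libraries set apart. Microfibrillar chains summed to 86.0 and 58.2 FPKM in DMSO, 117 and 121 in 3C, and 160 and 219 in 5C. FACIT chains stayed between 39.8 and 51.0 FPKM in all libraries, with overlap between the groups. The other types summed to 63.0 and 58.6 FPKM in DMSO, 139 and 137 in 3C, and 126 and 123 in 5C, which came mostly from Col18a1.

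**Figure D2:**
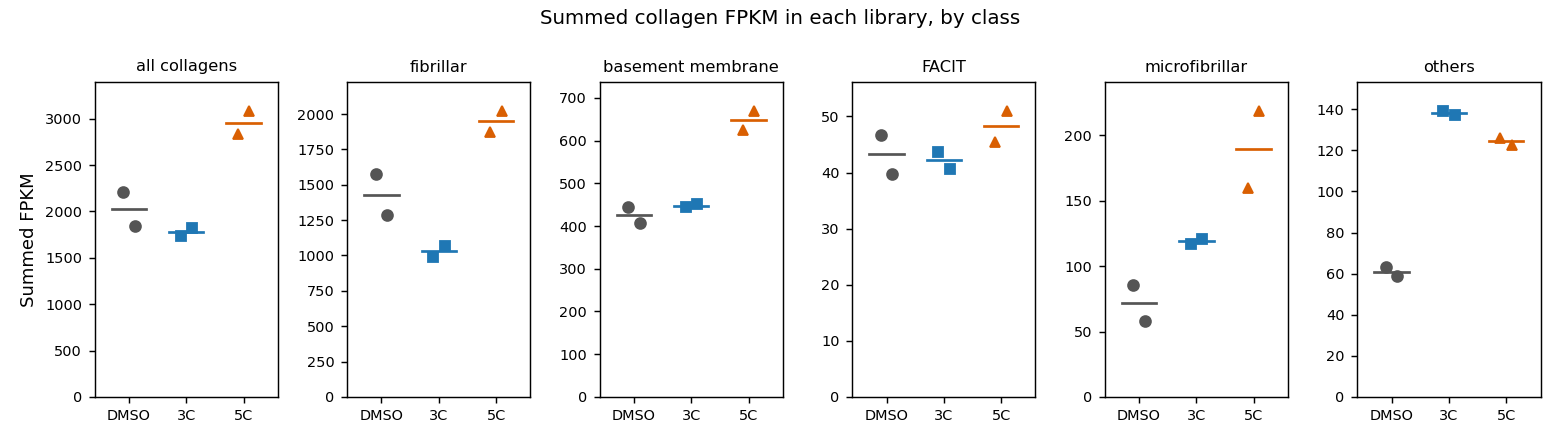
Summed FPKM of all 44 collagen genes and of each class, with 1 point per library, a line at the mean of the 2 libraries of a group, and a separate vertical axis from 0 in each panel. Fibrillar sums are lowest in 3C (992 and 1067) and highest in 5C (1875 and 2022), while the sums of the other types are lowest in DMSO (63.0 and 58.6).

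What the full cocktail does to the dHeps was addressed by setting 5C beside DMSO. By the quasi-likelihood F test of edgeR with Benjamini-Hochberg adjustment over all 19135 genes tested, 15 collagen genes rose and 2 fell at an adjusted p under 0.05, out of 37 tested, while 28.7% of all genes passed in either direction (15.6% higher and 13.1% lower). With a change of more than 2-fold as well, 9 rose and 1 fell, against 11.7% of all genes (7.3% higher and 4.42% lower). The median log2 fold change was 0.26 over the tested collagens and 0.004 over all genes tested.

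The effect of the compounds without salidroside and forskolin was addressed by setting 3C beside DMSO. Here 9 collagen genes rose and 11 fell, while 24.5% of all genes passed (12.7% higher and 11.8% lower), and 4 rose and 5 fell by more than 2-fold, against 9.45% of all genes (5.83% higher and 3.62% lower). The median was 0.05 over the collagens and 0.009 over all genes. In the comparison of 5C with 3C, which asked what salidroside and forskolin added, 14 collagen genes were higher in 5C and Col8a1 was lower, while 12.7% of all genes passed (7.33% higher and 5.33% lower). Of these, 5 were higher by more than 2-fold, against 3.01% of all genes in either direction and 2.16% higher, and the median was 0.56, against -0.01 over all genes. The comparisons share libraries, so their counts are given side by side and are not independent. In all, 25 members passed in at least 1 comparison.

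**Figure D3:**
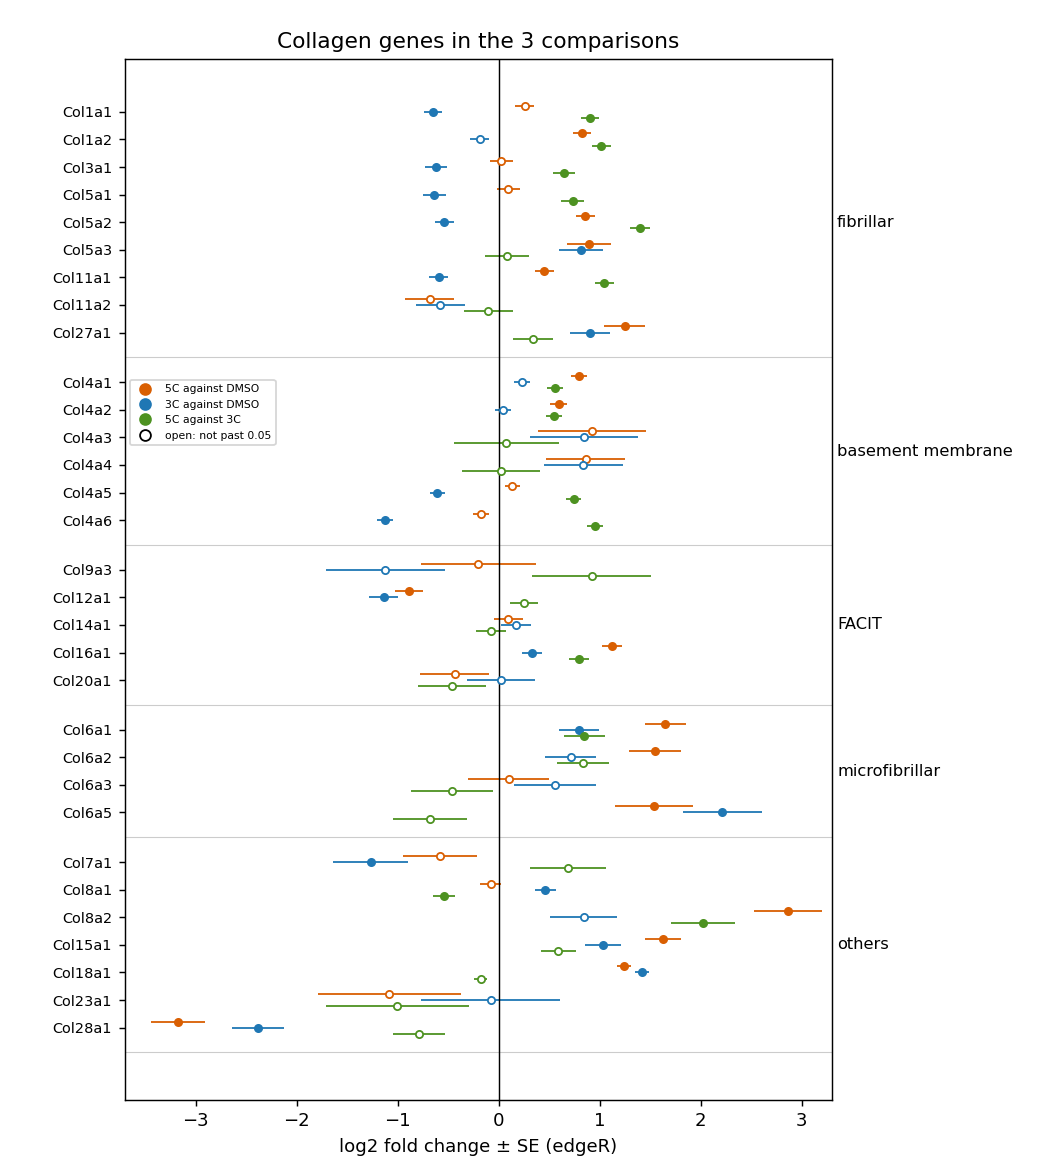
Log2 fold change with its SE for 31 tested collagen genes that were above the floor in every group, by class, in 5C against DMSO, in 3C against DMSO and between 5C and 3C. Filled points passed at an adjusted p under 0.05. For Col1a1, Col3a1, Col5a1, Col5a2 and Col11a1 the points of 3C against DMSO lie at -0.65 to -0.54 and those of 5C against 3C at 0.65 to 1.40.

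Fibrillar collagens differed between the cocktails. Of 11 tested members, 5 rose and 0 fell in 5C against DMSO, and 2 rose and 5 fell in 3C against DMSO. Between the cocktails, 6 were higher and 0 lower in 5C than in 3C. The shares of all genes that passed were 28.7%, 24.5% and 12.7% in this order. The class medians were 0.26, -0.59 and 0.73 on the log2 scale in this order. The first was 0.355 when Col2a1, for which the floor allows no fold, was left out.

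Col1a1 encodes the alpha1 chain of type I collagen, the main protein of scar tissue. It was at 3482 and 2921 CPM in DMSO, 2027 and 2149 in 3C, and 3668 and 3880 in 5C. The 3C libraries were lowest, with a log2 fold change of -0.65 ± 0.09 (SE) against DMSO and an adjusted p of 0.000793 in edgeR. The 5C libraries were higher than 3C by 0.91 ± 0.09 (adjusted p = 0.000562, edgeR). Against DMSO the log2 fold change of 5C was 0.26 and its adjusted p was 0.0635, which passed without DMSO replicate 1 (0.0071), with DESeq2 (0.0229) and with counts divided by 4 (0.0478) but in no other alternative.

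Col1a2, the alpha2 chain of the same protein, followed another course. It was at 2814 and 2381 CPM in DMSO, 2293 and 2363 in 3C, and 4342 and 4746 in 5C. The 5C libraries stood above all others, with log2 fold changes of 0.83 against DMSO and 1.02 against 3C (adjusted p = 0.000155 and 0.000353, edgeR). In 3C against DMSO the log2 fold change was -0.19 with an adjusted p of 0.182, and only without DMSO replicate 2 did it pass (0.0292). The annotated exons of Col1a2 overlap those of Gm66266 on the opposite strand by 1308 bases, and since the library kit does not mark strand the reads there cannot be told apart.

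The ratio of Col1a1 to Col1a2 FPKM was therefore 1.11 and 1.09 in DMSO, 0.793 and 0.815 in 3C, and 0.757 and 0.734 in 5C. Type I collagen usually has more alpha1 than alpha2 chains. All treated libraries lay below both DMSO libraries in this ratio, which was not tested.

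Col3a1, the chain of type III collagen found beside type I in soft tissue and scars, was at 1716 and 1526 CPM in DMSO, 1046 and 1110 in 3C, and 1452 and 1803 in 5C. It fell in 3C against DMSO by 0.62 on the log2 scale (adjusted p = 0.0034, edgeR). It was higher in 5C than in 3C by 0.65 (adjusted p = 0.0061), a call that was lost without 3C replicate 1 (0.0616). The DMSO and 5C libraries overlapped, with a log2 fold change of 0.03 whose sign turned without DMSO replicate 2 or 5C replicate 2 and on the FPKM scale.

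Type V collagen starts and limits the growth of type I fibrils. Its chain Col5a2 was at 1146 and 1013 CPM in DMSO, 728 and 789 in 3C, and 1810 and 2052 in 5C. This was the widest gap between the cocktails among the abundant fibrillar chains, at 1.40 ± 0.09 in log2 fold change between 5C and 3C (adjusted p = 0.000139, edgeR), with a rise of 0.86 in 5C and a fall of 0.54 in 3C against DMSO. Its partner Col5a1 was at 446.5 and 430 CPM in DMSO, 262.8 and 313.5 in 3C, and 420 and 505 in 5C, where DMSO and 5C overlapped. Col5a1 fell in 3C by 0.64 (adjusted p = 0.00336) and was higher in 5C than in 3C by 0.73 (0.00387). The ratio of Col5a1 to Col5a2 FPKM was 0.314 and 0.370 in DMSO, 0.308 and 0.341 in 3C, and 0.200 and 0.209 in 5C. Col3a1 had 1.65 and 1.79 times the FPKM of its neighbor Col5a2 in DMSO, 1.70 and 1.67 times in 3C, and 0.953 and 1.03 times in 5C, so in both ratios the 5C libraries stood alone.

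**Figure D4:**
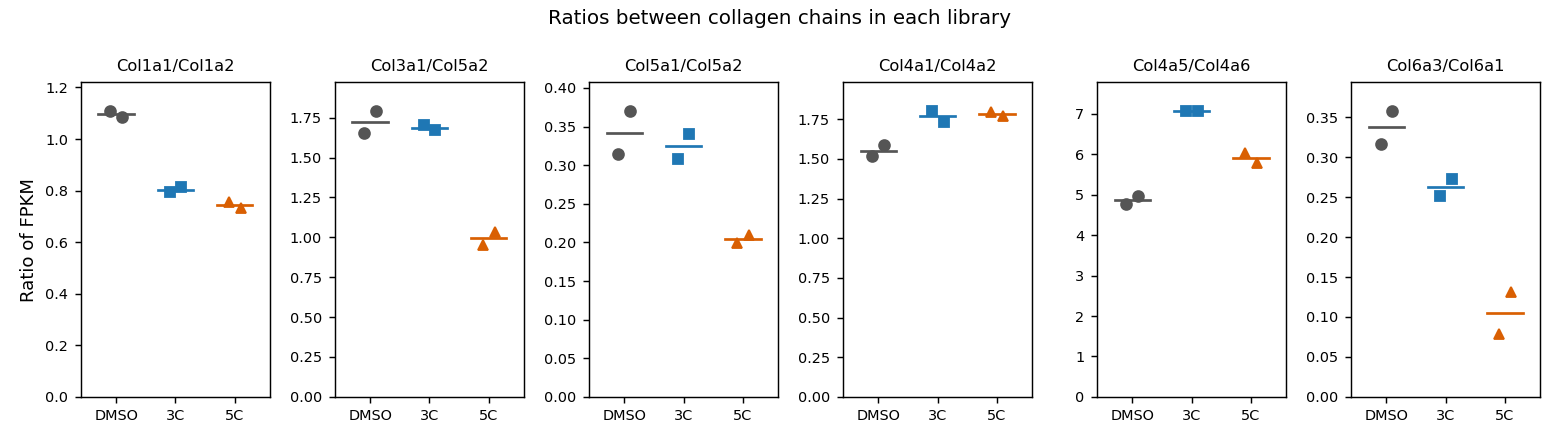
Ratio of FPKM between 2 collagen chains in each library, with 1 point per library, a line at the mean of the 2 libraries of a group, and vertical axes from 0. Col1a1/Col1a2 is above 1 in both DMSO libraries (1.11 and 1.09) and below 1 in the other 4, and Col6a3/Col6a1 is lowest in 5C (0.0793 and 0.131).

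Col11a1, a minor chain that joins type V in fibrils, was at 109 and 95.8 CPM in DMSO, 70.9 and 68.0 in 3C, and 128 and 149 in 5C. It rose by 0.45 in 5C and fell by 0.59 in 3C against DMSO, and differed between the cocktails by 1.05 in log2 fold change (adjusted p = 0.000388, edgeR). Col27a1, a fibrillar chain best known from cartilage, rose in both cocktails. It was at 10.4 and 6.87 CPM in DMSO, 15.9 and 17.1 in 3C, and 23.0 and 17.3 in 5C. Against DMSO the log2 fold changes were 1.25 for 5C and 0.91 for 3C (adjusted p = 0.0016 and 0.0099). Both calls were lost with limma on log2(FPKM + 1) (adjusted p = 0.068 for 5C and 0.173 for 3C). The call in 3C was lost without 3C replicate 2 (0.062). Col5a3 was low, at 4.07 to 5.15 CPM in DMSO and 7.08 to 9.79 CPM in the cocktails. Its log2 fold changes were 0.89 in 5C and 0.81 in 3C (adjusted p = 0.0148 and 0.0256). The call in 5C was lost without DMSO replicate 2 or 5C replicate 2, with adjusted p up to 0.118, and that in 3C without DMSO replicate 2 or either 3C library, with adjusted p up to 0.149. Col11a2, Col2a1 and Col24a1 did not pass in any comparison, with Col11a2 at 5.21 to 11.4 CPM and the other two under 1 CPM.

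Of the 6 basement membrane collagens, all tested, Col4a1 and Col4a2 rose in 5C against DMSO, where 28.7% of all genes passed, and Col4a5 and Col4a6 fell in 3C against DMSO, where 24.5% did. These 4 were higher in 5C than in 3C, where 12.7% of all genes passed. The class medians were 0.69, 0.14 and 0.55 on the log2 scale, and the first was 0.344 without 5C replicate 2.

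Col4a1 and Col4a2 make the chains of the widespread form of type IV collagen. Col4a1 was at 1599 and 1590 CPM in DMSO, 1935 and 1898 in 3C, and 2580 and 2876 in 5C. Col4a2 was at 1026 and 978 CPM in DMSO, 1046 and 1068 in 3C, and 1400 and 1582 in 5C. Both were highest in the 5C libraries. Among the endothelial markers Cdh5 was also highest there, but Lyve1 and Vwf fell in both cocktails and the summed level was highest in DMSO. The summed mesothelial markers were highest in 5C as well. The part of these cells in the type IV values was not tested. Col4a1 rose by 0.79 ± 0.08 and Col4a2 by 0.59 ± 0.08 in 5C against DMSO (adjusted p = 7.67e-05 and 0.000572, edgeR), and they were higher in 5C than in 3C by 0.56 and 0.55. In 3C against DMSO their log2 fold changes were 0.23 (adjusted p = 0.06) and 0.05 (0.763), and that of Col4a1 passed in 6 of the alternatives, among them DESeq2 (0.0138) and leaving out 5C replicate 1 or 2 (0.0486 and 0.0479). The ratio of Col4a1 to Col4a2 FPKM was 1.52 and 1.59 in DMSO, 1.80 and 1.73 in 3C, and 1.80 and 1.77 in 5C. The pair overlaps at its start sites, in the window printed above, and reads in the overlap cannot be assigned to a strand.

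Col4a5 and Col4a6 belong to other basement membranes, such as those of kidney and smooth muscle, and share a start region on chromosome X. Col4a5 was at 391 and 351 CPM in DMSO, 248.5 and 249.8 in 3C, and 400 and 405 in 5C. Col4a6 was at 87.1 and 75.8 CPM in DMSO, 38.0 and 38.4 in 3C, and 71.1 and 71.6 in 5C. In both genes the 3C libraries lay below all others. Col4a5 fell in 3C by 0.61 ± 0.07 and Col4a6 by 1.12 ± 0.08 on the log2 scale (adjusted p = 0.000273 and 1.63e-05, edgeR). They were higher in 5C than in 3C by 0.74 and 0.95 (adjusted p = 0.000466 and 0.00027). Against DMSO, 5C gave 0.14 (adjusted p = 0.197) and -0.17 (0.148). The FPKM of Col4a5 was 4.77 and 4.96 times that of Col4a6 in DMSO, 7.07 and 7.06 times in 3C, and 6.04 and 5.78 times in 5C. Col4a3 and Col4a4, known from the filtration barrier of the kidney, were at 0.303 to 4.0 CPM and passed in no comparison.

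FACIT collagens sit on the surface of fibrils. Of the 6 tested, 1 rose and 1 fell in each comparison against DMSO, and 1 was higher in 5C than in 3C. Among all genes, 28.7% passed in 5C against DMSO, 24.5% in 3C against DMSO and 12.7% in 5C against 3C. The class medians were -0.24, 0.10 and 0.09, and some of them changed sign when a library was left out.

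Col12a1, a fibril-associated chain of dense connective tissue, was at 171 and 138 CPM in DMSO, 70.0 and 73.6 in 3C, and 72.5 and 92.6 in 5C. It fell in both cocktails, by 1.14 in 3C and 0.88 in 5C on the log2 scale (adjusted p = 0.000933 and 0.00274, edgeR). Between the cocktails the log2 fold change was 0.25 (adjusted p = 0.336). Col16a1, which is found at the edges of fibrils and near basement membranes, went the other way. It was at 51.8 and 43.8 CPM in DMSO, 64.7 and 57.9 in 3C, and 109 and 95.8 in 5C. It rose by 1.12 in 5C (adjusted p = 4.05e-05) and was higher in 5C than in 3C by 0.79 (0.00144). Its rise of 0.33 in 3C (0.0401) was lost without DMSO replicate 2, 3C replicate 1 or 3C replicate 2, with adjusted p of 0.171, 0.268 and 0.068.

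Col14a1, a fibril-associated chain that fibroblasts make, had the highest mean FPKM of the class. It was at 128 and 123 CPM in DMSO, 148 and 141 in 3C, and 111 and 154 in 5C, and the 5C libraries spanned all others. It passed in no comparison, with log2 fold changes of -0.08 to 0.17. Without 5C replicate 1 it passed in 5C against DMSO (0.32, adjusted p = 0.0234), and without 5C replicate 2 in 5C against 3C (-0.36, adjusted p = 0.0424). Col9a2, Col9a3 and Col20a1 were at 0 to 2.40 CPM and did not pass.

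Microfibrillar collagens had the largest class median in 5C against DMSO, 1.54 on the log2 scale, with 4 of 6 tested members higher. In 3C against DMSO 3 rose and the median was 0.76, or 1.98 without DMSO replicate 1. Between 5C and 3C only Col6a1 passed, and the median was 0.27, which became -0.26 when Col6a4, never above the floor, was left out. Of all genes, 15.6% rose in 5C against DMSO and 12.7% in 3C against DMSO, and 7.33% were higher in 5C than in 3C.

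Type VI collagen is assembled from an alpha1, an alpha2 and usually an alpha3 chain. Col6a1 was at 194 and 135 CPM in DMSO, 292 and 293 in 3C, and 439 and 577 in 5C. The groups did not overlap and rose in the order DMSO, 3C and 5C. Its log2 fold change was 1.65 ± 0.20 in 5C against DMSO (adjusted p = 0.00177, edgeR). The rise in 3C of 0.80 (0.0334) and the difference of 0.85 between the cocktails (0.0453) were less firm. The first was lost without DMSO replicate 2, 3C replicate 1 or 3C replicate 2, with adjusted p of 0.0731 to 0.134, and the second without 3C replicate 1, 3C replicate 2 or 5C replicate 2, with adjusted p of 0.162 to 0.213. Without a filter on low counts both were lost (0.0751 and 0.0945).

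Col6a2 was at 120 and 83.3 CPM in DMSO, 171 and 170 in 3C, and 237 and 348.5 in 5C, the same order as its neighbor. It rose in 5C by 1.55 ± 0.26 (adjusted p = 0.0108). In 3C its log2 fold change was 0.71 (adjusted p = 0.12), and between the cocktails it was 0.83 (0.119). The first of these passed without 5C replicate 1 (0.0331) or 2 (0.0356) and in a fit to the 4 libraries compared (0.0255), and the second without 5C replicate 1 (0.0329) and with DESeq2 (0.0411).

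The alpha3 chain did not follow. Col6a3 was at 125 and 98.2 CPM in DMSO, 161 and 176 in 3C, and 76.9 and 158 in 5C, where the 2 libraries lay far apart and 5C replicate 1 was the lowest of all. It passed in no comparison, with log2 fold changes of 0.10 (5C) and 0.56 (3C) against DMSO, and -0.46 between 5C and 3C. The comparisons with 5C rested on its single libraries. Without 5C replicate 2 the first was -0.53 and the last -1.10, with adjusted p of 0.034 and 0.00734. Without 5C replicate 1 the first was 0.54 (0.0306). The value of 3C against DMSO passed, at 0.57, without 5C replicate 1 (0.0102), without 5C replicate 2 (0.0096) and in a fit to the 4 libraries compared (0.0099). The ratio of Col6a3 to Col6a1 FPKM was 0.317 and 0.358 in DMSO, 0.251 and 0.273 in 3C, and 0.0793 and 0.131 in 5C, while Col6a1 had 1.59 and 1.60 times the FPKM of Col6a2 in DMSO, 1.68 and 1.72 times in 3C, and 1.83 and 1.63 times in 5C.

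Col6a5 and Col6a6 encode chains that can stand in for alpha3. They were rare and rose in both cocktails. Col6a5 was at 1.62 and 0.728 CPM in DMSO, 6.76 and 4.38 in 3C, and 3.26 and 3.47 in 5C. Its log2 fold changes were 2.21 in 3C and 1.54 in 5C (adjusted p = 0.00294 and 0.0158, edgeR). The call in 5C was lost without DMSO replicate 2, 5C replicate 1 or 5C replicate 2, with adjusted p of 0.0583, 0.0548 and 0.0684. Col6a6 was at 0.179 and 0.0607 CPM in DMSO, at or under the floor, against 2.30 and 2.79 in 3C and 2.35 and 1.75 in 5C. It was at least 14.1-fold higher in 3C and at least 11.4-fold higher in 5C than in DMSO, counted against the floor per library (adjusted p = 0.000256 and 0.000294). In sequence, 3.51% of the 50-base words of Col6a6 occurred in another gene, mostly Col6a5, and no member shared more.

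Among the other types, 3 rose and 1 fell in 5C against DMSO, and 3 rose and 3 fell in 3C, of 8 tested. Between the cocktails 2 were higher in 5C and 1 lower. Among all genes, 28.7%, 24.5% and 12.7% passed in these comparisons in turn. The class medians were -0.17, 0.19 and 0.21, and the first turned to 0.344 without DMSO replicate 1.

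Col18a1 and Col15a1 are multiplexins of basement membrane zones, and the C-terminal fragment of Col18a1 is endostatin. In the liver Col18a1 is also made by hepatocytes. Col18a1 was at 212 and 216 CPM in DMSO, 592 and 578 in 3C, and 514 and 484.5 in 5C. Both cocktails were far above DMSO, by 1.42 ± 0.07 in 3C and 1.24 ± 0.07 in 5C on the log2 scale (adjusted p = 2.22e-06 for each, edgeR). Between 5C and 3C the log2 fold change was -0.18 (adjusted p = 0.125, edgeR), which passed with DESeq2 (0.0195). Exons of Slc19a1 overlap those of Col18a1 on the opposite strand, and Slc19a1 was at 21.6 to 24.4 CPM in all libraries. Col15a1 was at 38.2 and 38.3 CPM in DMSO, 75.2 and 84.7 in 3C, and 94.9 and 137 in 5C. It rose by 1.62 in 5C and 1.03 in 3C (adjusted p = 0.000725 and 0.00639). The call in 3C was lost without DMSO replicate 1 or 2 (0.0782 and 0.0731), and the difference between the cocktails, 0.59 (0.0828), passed without 5C replicate 1 (0.0033) and with DESeq2 (0.0036).

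Col8a1 and Col8a2 encode short chains of hexagonal networks, known from vessel walls and the cornea. Col8a1 was at 80.8 and 72.3 CPM in DMSO, 117 and 98.8 in 3C, and 77.8 and 65.4 in 5C. It was highest in 3C, with a rise of 0.46 against DMSO, and its log2 fold change between 5C and 3C was -0.54 (adjusted p = 0.0107 and 0.00985, edgeR). The first call was lost without DMSO replicate 2 (0.0529) or 3C replicate 1 (0.113), and the second without 3C replicate 1 (0.101) or 5C replicate 2 (0.0715). Col8a2 was rare outside 5C. It was at 0.596 and 0.592 CPM in DMSO, 1.28 and 0.894 in 3C, and 3.95 and 4.59 in 5C, with log2 fold changes of 2.86 ± 0.33 against DMSO and 2.02 ± 0.32 against 3C (adjusted p = 0.000215 and 0.00401).

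Col28a1, a type VI-like collagen described around nerves, fell in both cocktails. It was at 6.45 and 7.69 CPM in DMSO, 1.34 and 1.42 in 3C, and 0.796 and 0.751 in 5C. Its log2 fold change was -3.17 ± 0.27 in 5C and -2.39 ± 0.26 in 3C against DMSO (adjusted p = 2.95e-05 and 0.000166, edgeR), and the 2 cocktails differed by -0.79 (0.09). Col7a1, the collagen of anchoring fibrils under epithelia, was at 6.82 and 4.13 CPM in DMSO, 1.54 and 3.09 in 3C, and 4.13 and 3.11 in 5C. It fell in 3C by 1.27 (0.0375), a call that was lost without DMSO replicate 1 (0.212), 3C replicate 1 (0.206), 5C replicate 1 (0.0602) or 5C replicate 2 (0.0585) and in a fit to the 4 libraries compared (0.0574). Col17a1, a transmembrane collagen of epithelial attachment, was at 0.67 and 0.228 CPM in DMSO, 0 in both 3C libraries, and 0.434 and 0.303 in 5C. Against the floor per library it was at least 2.51-fold lower in 3C than in DMSO (adjusted p = 0.00895) and at least 2.07-fold higher in 5C than in 3C (0.0199). The second call was lost without any of the 4 libraries of the cocktails, with adjusted p up to 0.0813. Col23a1 was under 1 CPM and did not pass.

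Genes that make, process and bind collagen were set beside the family. The list held 52 genes, all of which were tested. In 5C against DMSO 23 rose and 7 fell, in 3C against DMSO 6 rose and 18 fell, and 31 were higher and 3 lower in 5C than in 3C, against the shares of all genes given above. The medians were 0.22, -0.24 and 0.46 on the log2 scale.

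Most of the 20 genes of hydroxylation, chaperones and secretion act in the endoplasmic reticulum, where collagen chains are modified and folded. Of the 20, 9 rose and 2 fell in 5C against DMSO, where 15.6% of all genes rose and 13.1% fell. In 3C against DMSO 0 rose and 9 fell, where 12.7% and 11.8% of all genes did. Between the cocktails 15 were higher and 0 lower in 5C than in 3C, against 7.33% and 5.33% of all genes. Serpinh1 encodes HSP47, the chaperone of the collagen triple helix. It was at 848 and 815.5 CPM in DMSO, 547.5 and 597 in 3C, and 1235 and 1265 in 5C. Its groups did not overlap, with log2 fold changes against DMSO of 0.61 (5C) and -0.57 (3C), and 1.18 between the cocktails (adjusted p = 0.000243, 0.000433 and 0.000119, edgeR). Plod2, a lysyl hydroxylase of the ends of collagen chains that is tied to stiff crosslinks, was at 130 and 111 CPM in DMSO, 94.7 and 93.5 in 3C, and 222 and 238 in 5C, a difference of 1.34 between the cocktails (0.000119). Fkbp10, a prolyl isomerase that works with Plod2, differed between the cocktails by 1.08 (0.000106).

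Processing and crosslinking enzymes act on secreted collagen. Adamts3, which cuts N-terminal propeptides, was higher in 5C than in 3C by 1.47 (adjusted p = 0.018, edgeR), and Pcolce2, an enhancer of C-terminal propeptide cleavage, fell in 3C by 1.42 on the log2 scale (0.000242) and was higher in 5C than in 3C by 1.03 (0.0039). Lox, the lysyl oxidase that starts crosslinks, was at 789 and 708 CPM in DMSO, 529 and 545 in 3C, and 996 and 1180 in 5C. It moved in the same order as Col1a1, with 3C lowest. Loxl1, a relative of Lox best known for elastin, rose in 5C by 1.14 (4.86e-05) and had a log2 fold change of 0.05 in 3C (0.804). Pxdn, the peroxidase that crosslinks type IV collagen, was at 36.2 and 31.7 CPM in DMSO, 50.3 and 49.6 in 3C, and 79.3 and 85.7 in 5C. It rose in both cocktails, as did its basement membrane companion Nid2, which was at 30.4 and 21.0 CPM in DMSO, 160 and 122 in 3C, and 285 and 253 in 5C.

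Receptors for collagen went several ways. Ddr2, a receptor tyrosine kinase for fibrillar collagen, fell in 3C by 1.02 on the log2 scale (adjusted p = 0.00112, edgeR) and had 0.07 in 5C (0.761). Itga10, an integrin chain that binds collagen, rose by 2.26 in 5C and 2.37 in 3C from 3.63 and 2.23 CPM in DMSO. Itga2, another collagen-binding integrin chain, fell in 5C by 1.26 (0.000919) and had 0.12 in 3C (0.70). Lair1, an inhibitory collagen receptor of immune cells, fell by 1.74 in 5C and 1.34 in 3C, and Ctsk, a protease that degrades collagen, by 1.68 and 1.67. The macrophage markers, whose sums are given above, fell in the same libraries. Of 10, 9 were lower in each comparison against DMSO, where 13.1% (5C) and 11.8% (3C) of all genes were lower. The part of macrophages in these values was not tested. Sparc, a collagen-binding matricellular protein, was at 2234 and 2218 CPM in DMSO, 1695 and 1666 in 3C, and 3291 and 3522 in 5C. Tgfb3, a growth factor that acts on collagen genes, rose in 5C by 1.14 (0.000173) and had 0.19 in 3C (0.318).

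**Figure D5:**
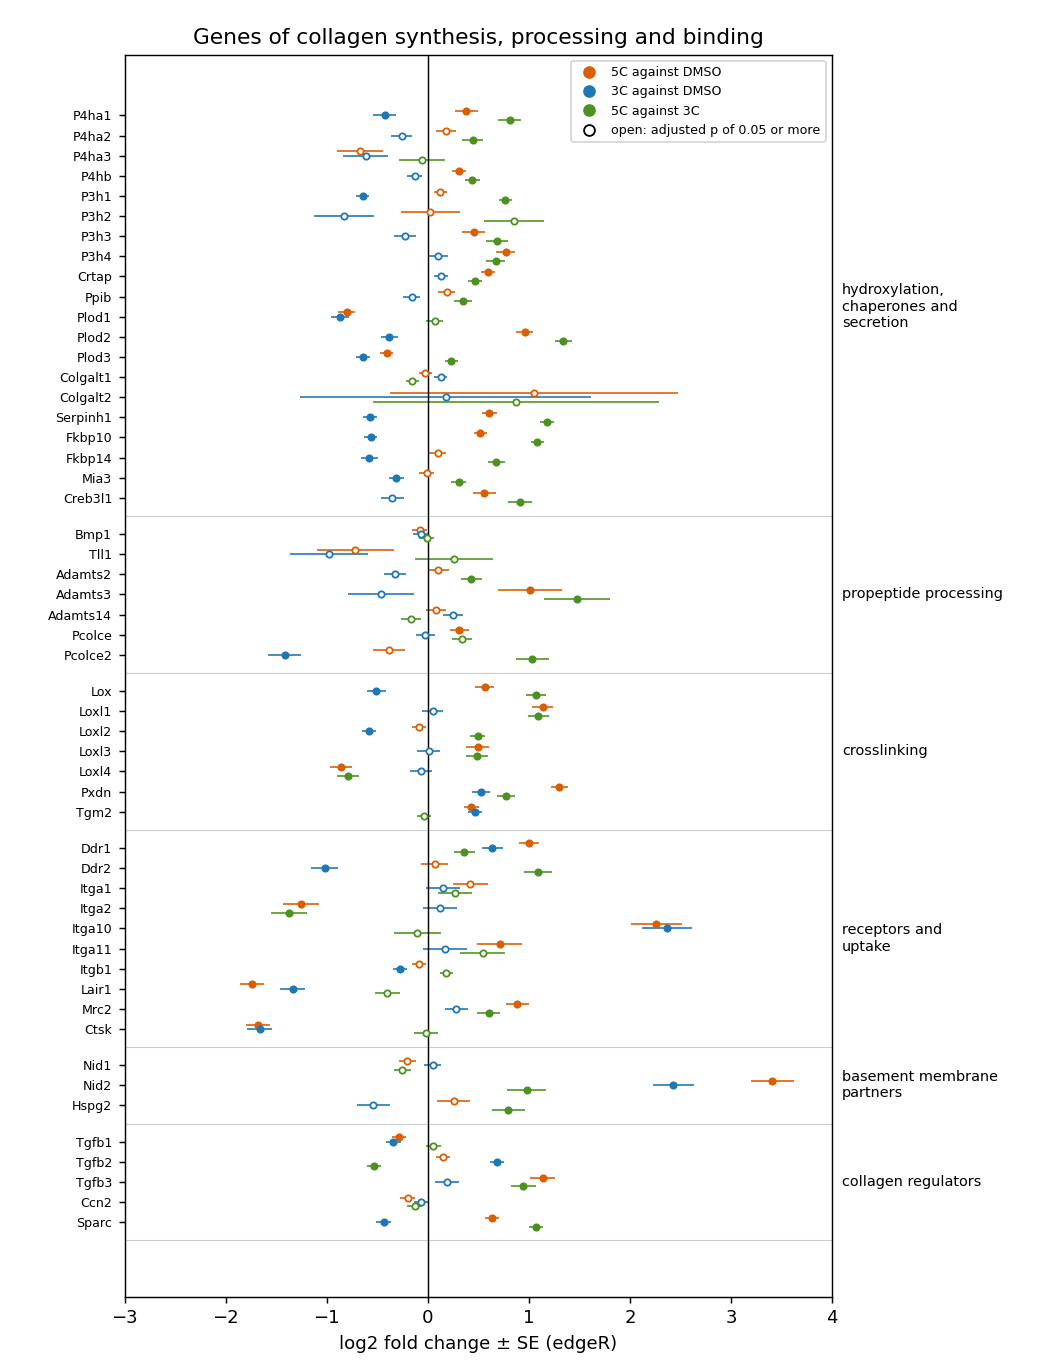
Log2 fold change with its SE for 52 genes of collagen synthesis, processing, crosslinking, binding, basement membrane and regulation in the 3 comparisons, with filled points at an adjusted p under 0.05. In the list of hydroxylation, chaperones and secretion, 15 of 20 genes were higher in 5C than in 3C and 9 of 20 fell in 3C against DMSO. Of all genes tested, 7.33% were higher in 5C than in 3C and 11.8% fell in 3C against DMSO.

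Markers of mesenchymal and mesothelial cells were counted in the same way. Of 14 stellate cell and fibroblast markers, 7 rose and 3 fell in each comparison against DMSO, and 5 were higher and 2 lower in 5C than in 3C, while 28.7%, 24.5% and 12.7% of all genes passed in the comparisons of 5C with DMSO, 3C with DMSO and 5C with 3C. The 3 that fell against DMSO were Acta2, Tagln and Des. Their log2 fold changes were -0.63, -0.50 and -0.72 in 5C and -1.29, -1.36 and -1.02 in 3C. Of 7 mesothelial markers, 6 rose in 5C against DMSO, 2 rose in 3C, and 6 were higher in 5C than in 3C. Their part in the collagen values was not tested.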

How the data were processed

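6 bulk libraries were analysed, 2 per group, with groups taken from the labels. The authors prepared them with a NEBNext Ultra RNA kit, sequenced paired ends on a NovaSeq6000 and used GRCm39. The submitters' processing notes name featureCounts, Subread and DESeq2, and the aligner is not given in the sources used here. The deposited estimated counts are whole, unnormalized values for 52323 genes. The deposited FPKM values were scaled by the authors for gene length and library total, and cover 52327 genes. Among low estimated counts the value 4 stood out (4816 entries, beside 3121 of 3 and 2303 of 5), so the number of units per fragment is uncertain.

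The members and gene lists were chosen with earlier results of these data known. Counts were tested with edgeR 4.0.16 in R 4.3.3 (quasi-likelihood F test, robust, TMM, filterByExpr on group, all 6 libraries, coefficients for group only), which kept 19135 genes, with 3 residual degrees of freedom and a common biological coefficient of variation of 18.4%. Benjamini-Hochberg adjustment ran over all genes tested, and unless another test is named the p-value of a gene is from this one. The SE is that implied by F. CPM are counts scaled to the library total. Where no library of a group exceeded the floor, the floor took the place of its value and the fold is a lower limit. Values in every library were given for the most abundant members of each class (4 in the fibrillar class and among the others, 3 elsewhere) and for members past the test with a change of more than 2-fold in any comparison, and other genes of the pathway were named by the latter rule. Further members that passed the test were added after their values were seen. The fit was tested on simulated data, where it recovered most changed genes but let through a larger share of false calls than the threshold names. Alternatives were RLE and upper quartile normalization, other filters, DESeq2 1.42.0, fits to 2 groups, a replicate block, limma 3.58.1 on log2(FPKM + 1) and log2(FPKM + 0.1), leaving out each library and, chosen after seeing the data, counts divided by 4. Figures were drawn with matplotlib 3.10.9.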

Additional observations from a re-analysis of the deposited data

How the results depend on the processing

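With a limit of more than 2-fold, the collagen genes past the test numbered 10 in 5C against DMSO, 9 in 3C against DMSO and 5 in 5C against 3C. With limma on log2(FPKM + 1) over all genes with a value, which tests more genes, they numbered 8 in 3C against DMSO and 8 in 5C against 3C. All other alternatives stayed within 1.5 times of the main counts, with 15 to 20, 15 to 22 and 11 to 16 when a library was left out. Of the calls of single members, 10 were lost on each of the FPKM scales and 24 on log2(FPKM + 1) without a filter. With the filter, the calls lost on log2(FPKM + 1) in 5C against DMSO were those of Col5a3, Col27a1 and Col6a5. In 3C against DMSO they were those of Col5a3, Col27a1, Col16a1, Col7a1, Col8a1 and Col17a1, and in 5C against 3C that of Col17a1.

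Class medians moved on log2(FPKM + 1), where low genes are pulled to 0 by construction: in 5C against DMSO to 0.106 for basement membrane and 0.244 for microfibrillar, in 3C against DMSO to -0.293 for fibrillar, and in 5C against 3C to 0.51 for basement membrane, which upper quartile normalization moved to 0.533. A filter of 10 counts in every library gave 0.252 for FACIT and -0.179 for the others in 5C against 3C. The causes were not tested beyond the lower number of genes.

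When a library was left out, the medians of 5C against DMSO ranged from 0.344 to 0.788 for basement membrane, -0.58 to 0.0 for FACIT and -0.36 to 0.344 for the others. Those of 3C against DMSO ranged from -0.61 to 0.206 for FACIT and 0.533 to 1.98 for microfibrillar. Those of 5C against 3C ranged from 0.511 to 0.871 for fibrillar, 0.447 to 0.644 for basement membrane, -0.11 to 0.545 for FACIT and -0.26 to 0.36 for microfibrillar.

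Signs turned only for genes that had not passed. In 5C against DMSO, Col3a1 was at -0.0113 on both FPKM scales and without a filter on FPKM, and between -0.16 and 0.187 with a library left out. Col6a3 was at -0.0858, -0.0986 and -0.0858 on these scales and between -0.53 and 0.535 with a library left out. Ranges with a library left out were -0.0581 to 0.237 for Col5a1, -0.18 to 0.325 for Col14a1, -0.19 to 0.0261 for Col8a1 and -0.83 to 0.696 for Col17a1. In 5C against 3C they were -0.20 to 0.303 for Col5a3 and -0.36 to 0.148 for Col14a1. Causes were not tested.

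Libraries with the same replicate number did not deviate together (r of -0.03, 7e-04 and 0.016 across 19135 genes), so the numbers were not taken as pairs. With a replicate block the counts were 18, 19 and 15. Under the block Col6a1 no longer passed in 3C against DMSO (0.0854) and in 5C against 3C (0.111), nor Col7a1 in 3C against DMSO (0.0715), and Col15a1 passed in 5C against 3C (0.0262).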
